A study of Homo sapiens with 6 samples.

Results

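The heat shock protein and chaperonin mRNAs were described in HEK293T, a line derived from human embryonic kidney that carries the large T antigen of SV40, under growing conditions and in mTOR-inactive conditions, where cells received 2.5 µM of the mTOR kinase inhibitor PP242. Members were taken by name from the mRNA-seq table, as every mRNA transcript whose gene symbol starts with HSPA, HSPB, HSPD, HSPE, HSPH, HSP90 or DNAJ, or with CCT and a digit, or is TCP1. This gave 115 transcripts of 85 genes, of 38438 transcripts listed. The name rule also takes in HSPBP1 and HSPBAP1, which are binding partners of chaperones, CCT8L2, and the readthrough transcript DNAJC25-GNG10, and it left out 10 transcripts with noncoding accessions.

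Messenger RNA levels were measured in 4 libraries, 2 from growing cells and 2 from PP242-treated cells, none of them treated with 4-thiouridine. RNA bound by LARP1, an RNA-binding protein linked to mTORC1 and to mRNAs of the translation machinery, was sequenced by PAR-CLIP in 1 library of growing cells and 1 of PP242-treated cells, after labeling with 100 µM 4-thiouridine for 14 hr and crosslinking with 150 mJ/cm2 of ultraviolet light. How long PP242 was applied is not given in the labels, and the mRNA-seq libraries are described as biological duplicates from replicate experiments, with no further word on the cultures; the p-values measure the spread between these libraries. Levels are given as RPKM, read numbers scaled to transcript length and to the mapped reads of the library. LARP1 sites are given as RPM, read numbers scaled to the mapped reads alone.

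Chaperones help other proteins to fold and keep unfolded chains from aggregating. HSP70 proteins (HSPA) bind and release short stretches of unfolded protein in a cycle driven by ATP, J-domain proteins (DNAJ) deliver substrates to HSP70 and start ATP hydrolysis, and nucleotide exchange factors end the cycle. HSP90 proteins act on clients that are nearly folded, small heat shock proteins (HSPB) hold unfolded proteins, and the chaperonins, TRiC in the cytosol (TCP1 and the CCT subunits) and HSPD1 with HSPE1 in mitochondria, enclose proteins in a chamber. Heat shock factor HSF1 drives many of the cytosolic genes, and the unfolded protein response drives those of the endoplasmic reticulum (ER).

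Sequences that these factors are known to bind were looked for in the RefSeq promoters of the members (assembly GRCh38.p14, 250 bases before to 50 after each start), since the mRNAs described next are classic targets of one or the other response. Promoters were found for 76 of the 85 genes. The ER stress response element, searched on both strands as CCAAT and CCACG with 9 bases of any kind between them, was present in 0.0769% of 35116 promoters and in those of 2 member genes, HSPA5 and HSP90B1. These windows of 30 bases run 5′ to 3′ on the gene's strand, with the element in capitals, and a match describes letters and not a bound site.
HSPA5 (chr9:125241385-125241414, minus strand): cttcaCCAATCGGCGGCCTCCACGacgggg
HSP90B1, upstream element (chr12:103930211-103930240, plus strand): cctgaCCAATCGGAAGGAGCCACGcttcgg
HSP90B1, downstream element on the opposite strand (chr12:103930316-103930345, plus strand): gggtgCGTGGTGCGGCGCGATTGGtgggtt

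The heat shock element was searched on both strands as 3 alternating units, GAA, TTC and GAA, with 2 bases of any kind after each of the first 2, which 0.490% of all promoters hold. Promoters of 7 member genes held it, namely HSPA8, HSPA6, HSP90AA1, HSP90AB1, HSPD1, DNAJA1 and DNAJB6. The shorter form of 2 units, GAANNTTC, which overlaps the longer one, was present in 6.77% of all promoters and in those of 19 member genes, DNAJB1, HSPA1A, HSPA1B, HSPB1, CCT2 and TCP1 among them. The windows below show the longer form in the genes of the constitutive HSP70, the cytosolic HSP90 genes and the mitochondrial chaperonin, and 1 copy of the shorter form in DNAJB1.
HSPA8 (chr11:123062170-123062199, minus strand): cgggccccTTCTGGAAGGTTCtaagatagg
HSP90AA1 (chr14:102087111-102087140, minus strand): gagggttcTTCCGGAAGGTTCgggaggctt
HSP90AB1 (chr6:44247823-44247852, plus strand): tgagattgTTCTGGAAGCTTCtggattctg
HSPD1 (chr2:197500059-197500088, minus strand): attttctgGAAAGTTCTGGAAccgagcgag
DNAJB1 (chr19:14518456-14518485, minus strand): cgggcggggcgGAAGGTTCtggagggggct

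After PP242 the chaperone mRNAs as a whole stayed near their growing level, and a few moved by 7% to 20%. The ER chaperones HSPA5 and HSP90B1 rose, and the cytosolic HSPA8 and the J-domain proteins DNAJB1, DNAJA1 and DNAJA2 fell. No transcript of the TRiC chaperonin or of the mitochondrial chaperone list passed the limma test (0 of 16 and 2 of 9 at an unadjusted p under 0.05). That list leaves out DNAJC30, a mitochondrial J-domain protein that passed as lower. Of the 115 transcripts, 90 reached a mean of 1 RPKM over the 4 libraries and were tested with limma on log2(RPKM + 1), together with all 21014 transcripts that did. Of the 90, 3 passed a Benjamini-Hochberg adjusted p of 0.05 as higher and 7 as lower, 11.1% in all, against 9.93% of all tested transcripts (3.48% higher and 6.45% lower). This share is near the background. With eBayes run without a trend, HSPA5, HSP90B1, DNAJA1, DNAJA2 and DNAJC14 no longer passed (limma adjusted p of 0.0639 to 0.111), and without a filter on low values no member did, with adjusted p from 0.0971 for the named genes upward and 25 members at an unadjusted p under 0.05. The median change of the 90 was 0.010 on the log2 scale, against −0.0013 for all transcripts tested, a difference that was not tested. Without 1 library the median change ran from 0.0060 to 0.020. The median level of the members had an SD of 0.041 between replicates, which does not measure the spread of the median change.

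The libraries of the conditions did not overlap for 37 of the 90 transcripts as higher and for 23 as lower, with overlap in the other 30. In all tested transcripts 58.5% did not overlap, 28.5% as higher and 30.0% as lower, and in the members 41.1% and 25.6%; the difference in these shares was not tested. The 25 transcripts under 1 RPKM include HSPA6, an HSP70 known for strong induction by heat, at 0.092 RPKM. They also include 5 of the 8 transcripts named HSPB with a number. At the other end, 28 transcripts had a mean of at least 100 RPKM, led by HSP90AB1 at 724 RPKM, HSP90B1 at 603 RPKM and HSPA8 at 554 RPKM. Isoforms share reads in these values, because the authors divided reads that match several transcripts evenly, so the level of a single transcript depends on how many isoforms of its gene are listed.

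**Figure D1:**
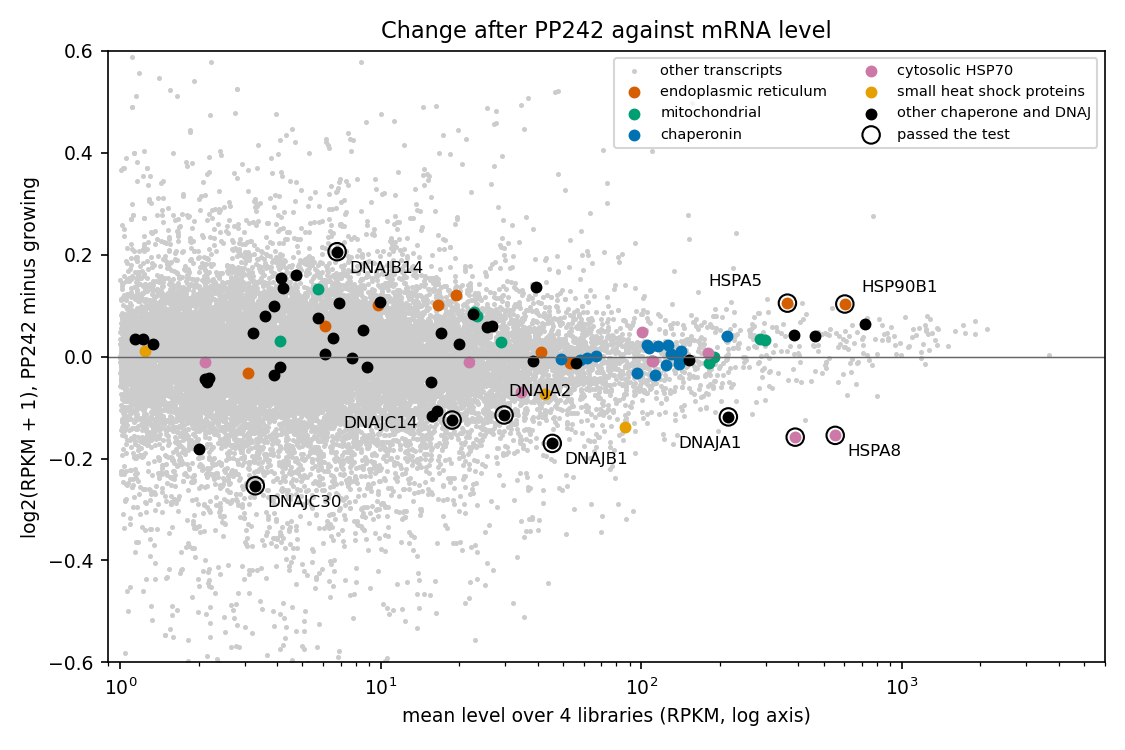
The change after PP242, as the difference in mean log2(RPKM + 1), is plotted against the mean level over the 4 mRNA-seq libraries (RPKM, log axis) for the 90 tested chaperone transcripts, colored by place in the cell, over the other tested transcripts in grey (83 of these lie outside the drawn range). Circles mark the 10 transcripts that passed the limma test: HSPA5, HSP90B1 and DNAJB14 above 0, and the others, with a second HSPA8 transcript, below.

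Among the ER chaperones, HSPA5 (BiP), the HSP70 of the ER lumen and a sensor of its folding load, measured 350.8 and 349.4 RPKM in growing cells and 375.4 and 377.8 RPKM after PP242. HSP90B1 (GRP94), the HSP90 of the same compartment, measured 576.8 and 586.6 RPKM in growing cells and 616.9 and 632.9 RPKM after PP242. For both genes the PP242 libraries lay above both growing libraries. HSPA5 rose by 7.56% (log2 change 0.10, SE 0.019, limma adjusted p = 0.0261) and HSP90B1 by 7.43% (log2 change 0.10, SE 0.022, limma adjusted p = 0.0408). The adjusted p of HSPA5 was 0.0660 to 0.103 when 1 library was left out, and that of HSP90B1 0.0492 without the first PP242 library and 0.0997 to 0.172 without any of the other 3.

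The other 7 ER members are HSPA13, a microsomal HSP70 relative, and the J-domain proteins DNAJB9, DNAJB11, DNAJC1, DNAJC3, DNAJC10 and DNAJC25. None of the 7 passed the limma test, and 3 were at an unadjusted p under 0.05. Over the 9 ER members the log2 changes ran from −0.033 to 0.12 with a median of 0.10, and 7 were positive. The libraries did not overlap as higher for 6 (66.7%) and as lower for 1 (11.1%). Over all tested transcripts these shares were 28.5% and 30.0%, and the difference was not tested. DNAJB14, an ER membrane protein whose J domain faces the cytosol and which stood outside the ER list, measured 6.05 and 6.43 RPKM in growing cells and 7.25 and 7.44 RPKM after PP242. It rose by 17.8% (log2 change 0.21, SE 0.038, limma adjusted p = 0.0286), and its adjusted p was 0.0424 without the second growing library and 0.0660 to 0.103 without any of the others.

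HSPA8 (HSC70), the constitutive HSP70 of the cytosol, passed under 8 of 10 alternatives, more than any other member called. Its main transcript measured 584.1 and 583.6 RPKM in growing cells and 519.3 and 529.7 RPKM after PP242. Both PP242 libraries lay below both growing libraries by more than the libraries of a condition differed. It fell by 10.2% (log2 change −0.15, SE 0.020, limma adjusted p = 0.00942), and the second HSPA8 transcript gave −0.16 with an adjusted p of 0.00744, from reads that the isoforms share. The adjusted p of the main transcript was 0.0545 without the first growing library and 0.0169 to 0.0498 without any of the other 3.

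No other HSP70 protein of the cytosol passed the test, and their difference from HSPA8 was not tested. Of the 9 tested transcripts of the cytosolic HSP70 list, the 2 of HSPA8 were the ones called (22.2%, against 9.93% of all tested transcripts). The changes of all 9 ran from −0.16 to 0.048, with 7 of them negative. HSPA14, which acts at the ribosome and was named after its values were seen, had both PP242 libraries (33.4 and 33.8 RPKM) below both growing ones (34.3 and 36.3 RPKM), with a log2 change of −0.070 (SE 0.033, limma adjusted p = 0.232). HSPA1B, a stress-inducible HSP70, measured 187.8 and 172.3 RPKM in growing cells and 182.9 and 178.9 RPKM after PP242, with the libraries overlapping (log2 change 0.0079, SE 0.042, limma adjusted p = 0.923). Its coding sequence is nearly the same as that of HSPA1A, so reads may be divided between them. HSPH1 (HSP110), an HSP70 relative that serves as nucleotide exchange factor, measured 98.7 and 99.2 RPKM in growing cells and 100.9 and 103.7 RPKM after PP242, a change of 0.048 that did not pass the test (SE 0.024, limma adjusted p = 0.248).

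DNAJB1, DNAJA1 and DNAJA2, which are J-domain partners of cytosolic HSP70, were lower as well. DNAJB1 (HSP40), a class B protein that also helps HSP70 to take apart aggregates, measured 48.3 and 48.1 RPKM in growing cells and 43.7 and 41.8 RPKM after PP242. DNAJA1, a class A protein, measured 223.9 and 225.0 RPKM in growing cells and 202.5 and 211.0 RPKM after PP242. DNAJA2, of the same class, measured 31.3 and 30.6 RPKM in growing cells and 28.3 and 28.7 RPKM after PP242. In each of them both PP242 libraries were below both growing ones. DNAJB1 fell by 11.3% (log2 change −0.17, SE 0.029, limma adjusted p = 0.0218), DNAJA1 fell by 7.89% (log2 change −0.12, SE 0.026, limma adjusted p = 0.0440) and DNAJA2 fell by 7.88% (log2 change −0.11, SE 0.026, limma adjusted p = 0.0498). Left without 1 library, DNAJB1 passed without the first PP242 library (adjusted p = 0.0273) and otherwise gave 0.0691 to 0.0804. DNAJA1 passed without the second PP242 library (0.0341) and otherwise gave 0.127 to 0.134, while DNAJA2 gave 0.0948 to 0.175.

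Members of the DNAJC class, a mixed group of proteins that share little beyond the J domain, included 2 that were lower. DNAJC14, a membrane-bound J-domain protein, measured 19.6 RPKM in both growing libraries and 17.8 and 18.1 RPKM after PP242, and fell by 8.68% (log2 change −0.12, SE 0.027, limma adjusted p = 0.0414). DNAJC30, a mitochondrial J-domain protein that stood outside the mitochondrial list, measured 3.66 and 3.67 RPKM in growing cells and 2.73 and 3.12 RPKM after PP242, and fell by 20.4% (log2 change −0.25, SE 0.053, limma adjusted p = 0.0394). Both falls exceeded the gap between replicates. Without 1 library the adjusted p was 0.103 to 0.158 for DNAJC14 and 0.0932 to 0.124 for DNAJC30, except that DNAJC30 passed without the second PP242 library (0.0193). DNAJC8, an abundant nuclear member of the class linked to splicing, measured 151.0 and 153.5 RPKM in growing cells and 149.7 and 153.6 RPKM after PP242, with the libraries overlapping.

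DNAJB4, named after its values were seen, had overlapping libraries and a log2 change of −0.0021 (limma adjusted p = 0.980). By family, DNAJB had 1 transcript higher and 1 lower of 14 tested (14.3% called), DNAJC 2 lower of 30 (6.67%), and DNAJA 2 lower of 4 (50.0%). Over all tested transcripts 9.93% were called, 3.48% as higher and 6.45% as lower. The 4 DNAJA transcripts are of 3 genes, and no family share was tested against the background. DNAJB6, which suppresses aggregation of polyglutamine proteins and whose promoter holds the longer heat shock element, is an example of a transcript close to the threshold. It measured 37.4 and 37.7 RPKM in growing cells and 40.3 and 42.6 RPKM after PP242 (log2 change 0.14, SE 0.032, limma adjusted p = 0.0535), and was chosen here after its values were seen. The other listed DNAJB6 transcript, at nearly the same level, had a log2 change of −0.0094 with overlapping libraries (adjusted p = 0.885). HSPB1 (HSP27), the most abundant small heat shock protein, lay close on the other side, at 93.9 and 88.1 RPKM in growing cells and 83.4 and 81.9 RPKM after PP242 (log2 change −0.14, SE 0.035, limma adjusted p = 0.0620). Promoters with the longer heat shock element thus belonged to members that fell (HSPA8, DNAJA1), to members that did not pass the test with positive changes (HSP90AA1, HSP90AB1, HSPD1), to DNAJB6, whose transcripts differed, and to HSPA6, which was too low to test.

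HSP90AB1, the constitutive HSP90 of the cytosol, had the highest single transcript of all members in every library. It measured 718.6 and 696.6 RPKM in growing cells and 736.3 and 743.7 RPKM after PP242 (log2 change 0.065, SE 0.022, limma adjusted p = 0.127). HSPA8 and HSP90AA1 each have a second listed transcript, so the order by gene depends on how isoforms are counted. In growing cells the means were 584 and 410 RPKM for HSPA8, 458 and 381 RPKM for HSP90AA1, and 708 RPKM for HSP90AB1. HSP90AA1, the inducible form, measured 454.8 and 461.8 RPKM in growing cells and 467.5 and 475.3 RPKM after PP242 in its main transcript (log2 change 0.041, SE 0.020, limma adjusted p = 0.255). In all 4 HSP90 transcripts, that of HSP90B1 included, the PP242 libraries lay above the growing ones, as in 28.5% of all tested transcripts. The differences of the cytosolic forms did not pass the test.

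**Figure D2:**
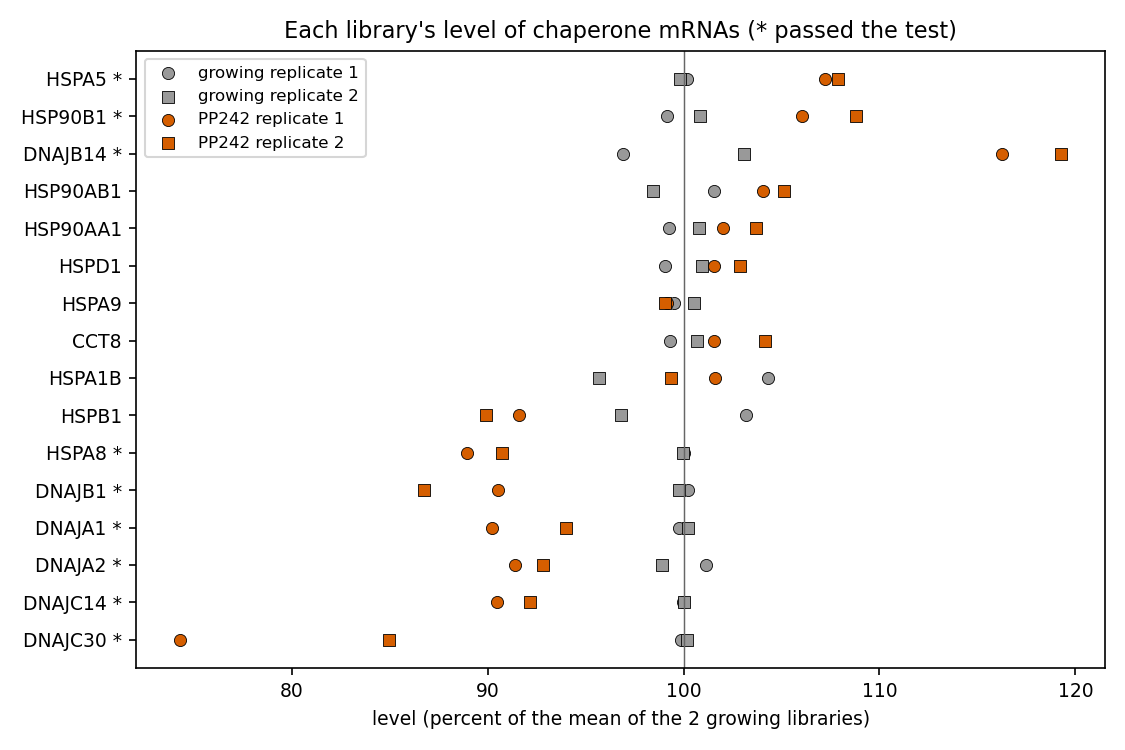
Each point is 1 mRNA-seq library, as its RPKM in percent of the mean of the 2 growing libraries, for 9 genes that passed the test (asterisk) and 7 abundant members that did not. The PP242 libraries (orange) of HSPA5, HSP90B1 and DNAJB14 lie to the right of the growing libraries (grey), those of HSPA8 and the DNAJ genes below it to the left, and those of HSPA9 and HSPA1B close to 100%.

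TRiC is built of 8 different subunits, 1 gene for each, with CCT6B as a second gene for the sixth subunit. No chaperonin transcript passed the test, of 16 tested, and the log2 changes ran from −0.037 to 0.040, all smaller in size than the changes of HSPA8 and HSPA5. CCT8, the subunit with the highest single transcript, measured 209.1 and 212.0 RPKM in growing cells and 213.8 and 219.2 RPKM after PP242 (log2 change 0.040, SE 0.023, limma adjusted p = 0.306). CCT6A had the lowest value of the range, with 114.1 and 113.3 RPKM in growing cells and 109.5 and 112.1 RPKM after PP242 (log2 change −0.037, SE 0.023, limma adjusted p = 0.351). TCP1, at 139.9 and 139.2 RPKM in growing cells and 138.1 and 139.6 RPKM after PP242, overlapped between conditions. CCT6B, which is known from testis, was at 0.073 RPKM in growing cells and 0.099 RPKM after PP242, means of libraries that overlapped, and was too low to test.

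The subunits of one complex did not have equal mRNA levels, and their order depended on how isoforms were counted. By the highest transcript in growing cells, CCT8 (211 RPKM ± 2.0, SD, n = 2) was followed by CCT4 (141 RPKM ± 0.014), CCT5 (140 RPKM ± 1.5) and TCP1 (140 RPKM ± 0.51), where each neighbor differed from CCT5 by less than its SD. Then came CCT2 (126 RPKM ± 1.0), CCT3 (115 RPKM ± 0.055), CCT6A (114 RPKM ± 0.57) and CCT7 (66.9 RPKM ± 0.47). Summed over the mRNA transcripts of each gene the order was another one. CCT4 (270 RPKM ± 0.30) and TCP1 (264 RPKM ± 1.2), with 2 transcripts each, were followed by CCT7 (236 RPKM ± 2.2), with 4 transcripts. CCT2 (230 RPKM ± 1.8), CCT3 (221 RPKM ± 1.3), CCT6A (211 RPKM ± 0.57) and CCT8 (211 RPKM ± 2.0) came next, the last 2 apart by less than their spread, and CCT5, with 1 transcript, had the lowest sum at 140 RPKM ± 1.5. CCT7 therefore moved from the lowest to below only CCT4 and TCP1 with the counting, whereas the difference between conditions stayed small in both. CCT3 and CCT7 also have 2 noncoding transcripts each in the table, which are no members, and with these their sums were 427 and 360 RPKM.

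**Figure D3:**
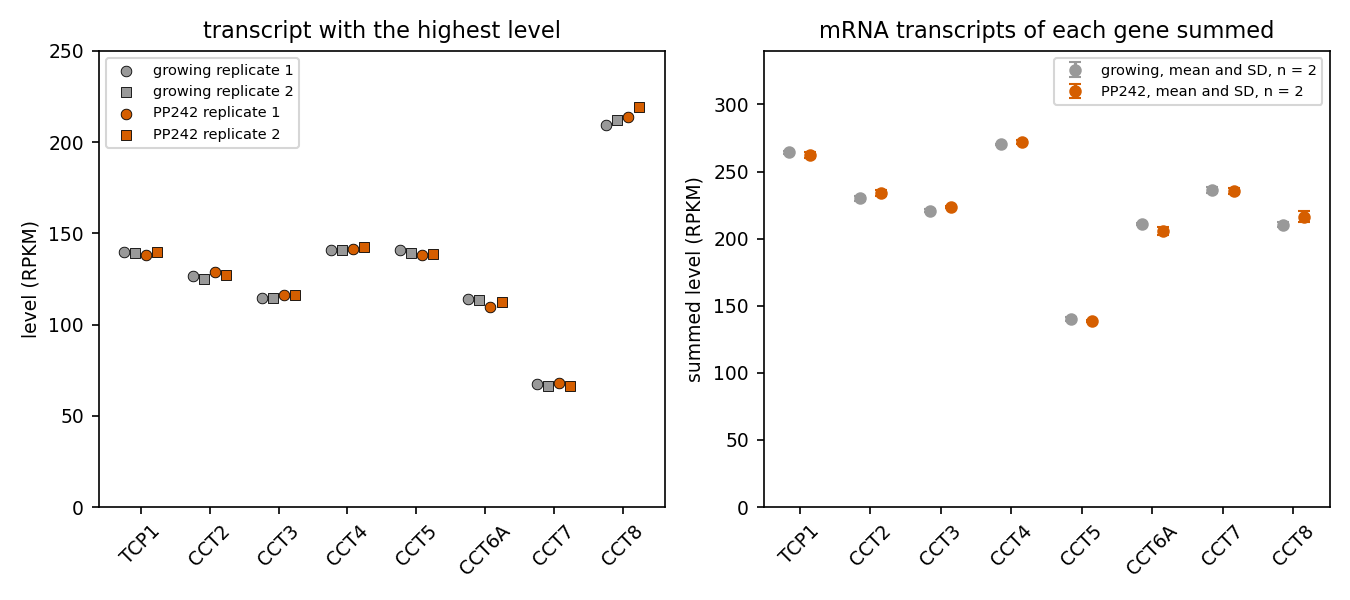
Levels of the 8 expressed TRiC subunits in RPKM: on the left the transcript with the highest level, 1 point per mRNA-seq library, and on the right the sum of the gene's mRNA transcripts as mean and SD of 2 libraries per condition. Growing (grey) and PP242 (orange) values nearly coincide for every subunit, and CCT7 is lowest on the left at 66.9 RPKM and below only CCT4 and TCP1 on the right at 236 RPKM.

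The most abundant mitochondrial chaperones changed little. HSPD1 (HSP60), the subunit of the chamber, measured 290.7 and 296.2 RPKM in growing cells and 298.1 and 302.0 RPKM after PP242 (log2 change 0.032, SE 0.021, limma adjusted p = 0.376). HSPE1 (HSP10), its lid, measured 192.1 and 187.7 RPKM in growing cells and 189.3 and 190.1 RPKM after PP242, with overlap. HSPA9 (mortalin), the HSP70 of the matrix, measured 181.4 and 183.2 RPKM in growing cells and 180.8 and 180.6 RPKM after PP242 (log2 change −0.013, SE 0.020, limma adjusted p = 0.721). HSPD1 and HSPE1 lie head to head and overlap in the annotation on opposite strands; the libraries were strand-specific, and whether the counting used strand is not given in the sources used here. The 9 tested transcripts of the mitochondrial list had log2 changes of −0.013 to 0.13 with a median of 0.032. The libraries did not overlap as higher for 6 of them (66.7%) and as lower for 1 (11.1%). Over all tested transcripts these shares were 28.5% and 30.0%, and the difference was not tested. DNAJC30, a mitochondrial protein outside this list, was lower (log2 change −0.25, limma adjusted p = 0.0394).

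Genes that work with the chaperones were taken from lists chosen with earlier results of these data known, with 1 transcript for each gene. Among 20 cytosolic cochaperones 1 was higher and 3 were lower, 20.0% in all against 9.93% of all tested transcripts, and all of these belong to the BAG family, whose founding members are nucleotide exchange factors of HSP70. BAG3, which links HSP70 to small heat shock proteins and autophagy, measured 16.2 and 15.4 RPKM in growing cells and 12.5 RPKM in both PP242 libraries, and fell by 20.6% (log2 change −0.31, SE 0.034, limma adjusted p = 0.00602). BAG2, an inhibitor of the chaperone-linked ubiquitin ligase CHIP, fell by 14.8% (adjusted p = 0.0122) and BAG5 by 18.1% (adjusted p = 0.0166). BAG6, which handles tail-anchored and mislocalized membrane proteins, rose by 12.9% (adjusted p = 0.0394), and was named after its values were seen. The median change of the 20 was −0.022. Without 1 library BAG3 still passed (adjusted p of 0.0137 to 0.0243), as did BAG2 except without the second growing library (0.0513), BAG5 passed without the second PP242 library alone (0.0353, otherwise 0.0571 to 0.0707), and BAG6 gave 0.0627 to 0.133.

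The ER folding and stress list, of 20 genes outside the members, had 3 higher and 2 lower (25.0%, against the 9.93% of all tested transcripts), with a median of 0.051. DDIT3 (CHOP), a transcription factor of prolonged ER stress, measured 2.30 and 1.99 RPKM in growing cells and 3.40 and 3.35 RPKM after PP242, and rose by 57.4% (log2 change 0.48, SE 0.054, limma adjusted p = 0.00652). SYVN1 (HRD1), the ubiquitin ligase of ER-associated degradation, rose by 14.7% (adjusted p = 0.0280) and SEL1L, its partner, by 13.6% (adjusted p = 0.0329). XBP1, a transcription factor of the unfolded protein response, went the other way, from 41.6 and 42.1 RPKM in growing cells to 32.7 and 32.9 RPKM after PP242, where it fell by 21.7% (log2 change −0.34, SE 0.024, limma adjusted p = 0.00177). SDF2L1, an ER protein that works with BiP and J-domain proteins, fell by 15.3% (adjusted p = 0.0282). The promoter of XBP1 holds the ER stress response element too, and so do those of CALR, CANX, CRELD2 and PDIA6 in this list. CALR, CANX, CRELD2 and PDIA6 did not pass the test (limma adjusted p of 0.0714 to 0.953). Genes with the element thus included risers, a faller and genes that were not called. XBP1 passed under all 10 alternatives and DDIT3 without any 1 library (adjusted p of 0.00896 to 0.0199). SDF2L1 was lost without the first library of either condition (0.0686 and 0.0929), SEL1L passed without the second growing library alone (0.0498, otherwise 0.0898 to 0.118), and SYVN1 gave 0.0535 to 0.107.

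In mitochondria GRPEL1 and GRPEL2, the nucleotide exchange factors of HSPA9, fell by 16.6% (adjusted p = 0.0154) and 12.0% (adjusted p = 0.0479) while HSPA9 itself did not pass the test. GRPEL1 measured 52.9 and 52.6 RPKM in growing cells and 42.3 and 45.6 RPKM after PP242. They were the 2 called of 11 mitochondrial folding and proteolysis genes, 18.2% against 9.93% of all tested transcripts. GRPEL1 was lost without either growing library (adjusted p of 0.0611 and 0.0520), and GRPEL2 gave 0.0507 to 0.155 without any 1 library. Of the prefoldin subunits, which hand unfolded actin and tubulin to TRiC, 0 of 6 passed the limma test (1 at an unadjusted p under 0.05), and of the TRiC regulators 0 of 3 (0 unadjusted). Of the heat shock factor list 3 of 4 genes were tested and 0 passed (2 unadjusted). HSF1 measured 27.7 and 27.1 RPKM in growing cells and 24.2 and 26.1 RPKM after PP242 (log2 change −0.12, SE 0.040, limma adjusted p = 0.120) and was singled out after its values were seen. Without a filter on low values XBP1 still passed (limma adjusted p = 0.0332), while the other 10 called genes of these lists did not (0.0707 to 0.163), and without a trend in eBayes BAG6 (0.0519) and GRPEL2 (0.0627) were lost.

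Transcripts above 0 numbered 36046 to 36149 per library, and the steps between low values put the relative depth of the libraries at 1 to 1.06. Of 9 genes typical of HEK293 cells, 8 were at 1 RPKM or more, with PAX2 at 0.12 RPKM. Of 7 genes chosen for other tissues, 5 were found by name, all at 0.15 RPKM or less, while CD3E and HBG1 were not found. VIM (vimentin), one of the 9, rose by 12.8% after PP242 (log2 change 0.17, SE 0.020, limma adjusted p = 0.00704), more than HSPA5 or HSP90B1, and its part in the results was not tested. In such bulk samples fewer cells of a kind and less RNA per cell cannot be told apart.

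LARP1 sites on the chaperone mRNAs were few in growing cells and more numerous after PP242. A site that several isoforms of a gene share was counted once. In the growing library 2 sites reached 1 RPM, on HSP90B1 and HSPA5, and in the PP242 library 13 did, on 10 genes. With 1 library per condition these differences have no replicate check and no test, and no counting interval is given because library totals were not used here. The sites of members summed to 6195 RPM in growing cells and 8203 RPM after PP242, or 2.33% and 2.87% of the RPM of distinct sites on all mRNAs.

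In growing cells the RPM lay almost wholly in a single site. HSP90B1 (GRCh37, chr12:104323885-104347709, plus strand) carried 6099 RPM at nucleotides 1384 to 1407 of its transcript, in the coding sequence (CDS). The same gene had no listed site after PP242, although its mRNA was slightly higher then. HSPA5 (chr9:127997132-128003661, minus strand) carried 95.6 RPM at nucleotides 1455 to 1474 of its CDS. The lists hold a column named for T-to-C conversions, which crosslinked 4-thiouridine leaves in the reads. Of all sites of at least 10 RPM, 50.7% in growing cells and 69.6% after PP242 had it within 1% of a fixed multiple of RPM. The column was at 100% of this multiple in the HSP90B1 site but at 0.435% in the HSPA5 site.

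After PP242 the strongest site was on CCT8 (chr21:30428126-30446118, minus strand), with 1720 RPM at nucleotides 1812 to 1835 in the 3'UTR. It was followed by HSPA9 (chr5:137889445-137911364, minus strand) with 1542 RPM in the CDS at 1948 to 1971, and by HSPH1 (chr13:31709110-31736525, minus strand) with 1118 RPM in the 3'UTR at 3522 to 3549. HSPD1 (chr2:198351308-198381461, minus strand) had 980 RPM in the 3'UTR at 2166 to 2189. The HSPD1 site was the one position listed in both conditions, and in growing cells it held 0.0096 RPM. The mRNA of none of these 4 genes passed the test for a change, with differences of 3.43% or less in size between conditions.

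HSPA5 was the one member with sites of at least 1 RPM in both libraries, at different positions. After PP242 it carried 903 RPM in the CDS at nucleotides 647 to 670, 43.4 RPM in the 3'UTR at 2247 to 2263 and 13.0 RPM in the CDS at 2141 to 2156. The cytosolic HSP90 genes were listed after PP242 alone, HSP90AB1 (chr6:44213903-44221625, plus strand) with 816 RPM in the 3'UTR at 2424 to 2445 and 313 RPM in the CDS at 714 to 735, and HSP90AA1 (chr14:102547079-102606036, minus strand) with 503 RPM in the 3'UTR. The CDS site of HSP90AB1 had the same RPM on a noncoding transcript without a name, so its reads may not be from HSP90AB1.

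The weaker sites were on HSPA1B (chr6:31795515-31798031, plus strand) with 116 RPM in the 3'UTR, HSPA8 (chr11:122928197-122933938, minus strand) with 95.3 RPM in the CDS, and DNAJC25-GNG10 (chr9:114393666-114432509, plus strand) with 39.5 RPM in the 3'UTR. The site of the readthrough transcript had the same RPM on GNG10, whose 3'UTR it shares. By single transcripts HSPA8 ranked next to HSP90AB1 and HSP90B1 in mRNA level. It thus had a lower RPM than all other bound members but DNAJC25-GNG10 in that library. Its T-to-C column stood at 2.93% of the usual multiple. It was at 0.417% for DNAJC25-GNG10 and at 99% or more in the other 11 sites.

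No member had a listed site in the 5'UTR in either library. On all mRNAs 4.31% of the RPM of distinct sites in growing cells and 3.61% after PP242 lay in 5'UTRs. After PP242 the members had 35.0% of their RPM in the CDS and 65.0% in the 3'UTR, against 39.8% and 56.6% on all mRNAs. In growing cells 99.99% lay in the CDS, from the 2 sites described, against 45.5% on all mRNAs. The sites of at least 1 RPM were 16 to 39 nucleotides long.

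**Figure D4:**
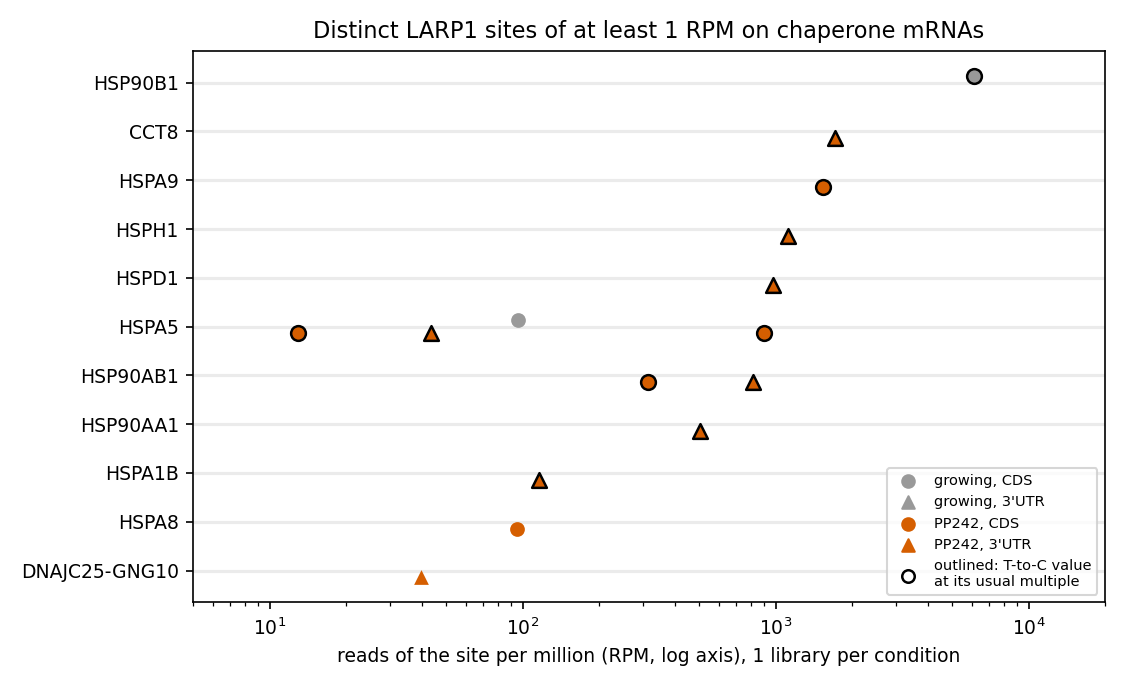
RPM (log axis) of each distinct LARP1 site of at least 1 RPM on a chaperone mRNA, 1 PAR-CLIP library per condition, with circles for the CDS and triangles for the 3'UTR. HSP90B1 and HSPA5 are the genes with a growing site (grey), at 6099 and 95.6 RPM, 10 genes have PP242 sites (orange) of up to 1720 RPM, and the 3 sites without an outline, on HSPA5 in growing cells and on HSPA8 and DNAJC25-GNG10 after PP242, have a T-to-C value far below its usual multiple.

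The bound members were the abundant ones. Of the 10 genes bound by this measure after PP242, 9 had a transcript with a mean of at least 100 RPKM, and the tenth was DNAJC25-GNG10 at 15.6 RPKM. Among genes with a transcript of at least 1 RPKM, 10 of 66 members (15.2%) were bound after PP242 against 3.83% of all 10799 such genes, and 2 of 66 (3.03%) in growing cells against 1.75%. Among genes with a transcript of at least 100 RPKM the members were closer to the background, with 9 of 21 (42.9%) against 33.2% of 389 genes after PP242 and 2 of 21 (9.52%) against 13.6% in growing cells. These shares describe 1 library each.

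Within the members RPM did not follow the mRNA level. Per RPKM of the transcript, HSPH1 carried the most after PP242 (10.9 RPM per RPKM), followed by HSPA9 (8.54) and CCT8 (7.94), and HSPD1 carried 3.27. HSP90AB1 had 1.10 in its stronger site and HSPA8 0.182. Each ratio uses the RPKM of a single transcript. HSPD1 and HSPA8 have 2 listed transcripts each, so their ratios to the gene's summed RPKM would be lower. The HSP90B1 site of growing cells reached 10.5 RPM per RPKM. Among the 11 bound members are HSPA5 and HSP90B1, which rose, HSPA8, which fell, and 8 genes whose mRNA did not pass the test, whereas DNAJB1, DNAJA1, DNAJA2, DNAJB14, DNAJC14 and DNAJC30 had no listed site in either library.

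**Figure D5:**
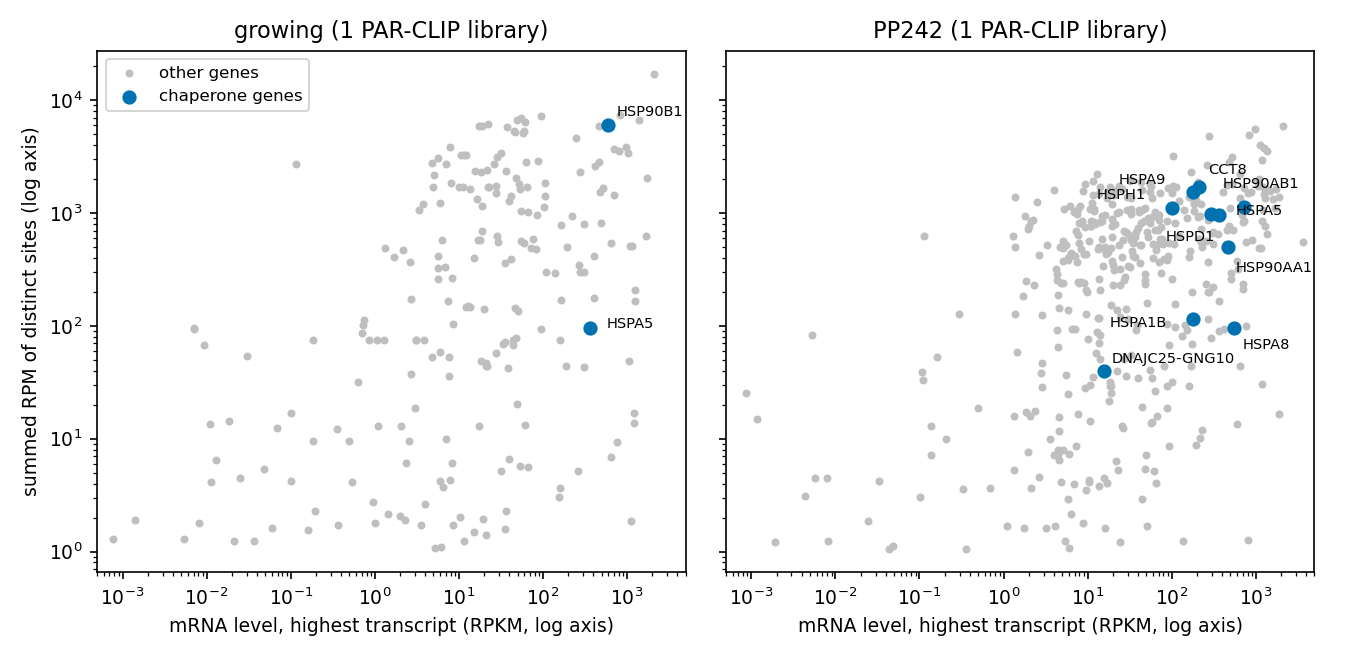
Summed RPM of the distinct sites of each gene with at least 1 RPM (log axis) against its mRNA level, the mean of its highest transcript over the 4 mRNA-seq libraries (RPKM, log axis), for growing (left) and PP242 (right), 1 PAR-CLIP library each. Chaperone genes (blue), except DNAJC25-GNG10, lie at the right-hand side among the other genes (grey), with HSPA8 at 554 RPKM but 95.3 RPM after PP242.

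Sites under 1 RPM were listed on further members, 9 in growing cells at 0.0006 to 0.43 RPM and 3 after PP242 at 0.0029 to 0.26 RPM. They included the HSPD1 position given above, the J-domain genes DNAJC5B, DNAJC21, DNAJC15, DNAJC5, DNAJC24 and DNAJC8 in growing cells, and DNAJC10 after PP242. Many of them had the same RPM on genes outside the members, as reads that fit many transcripts do, and they carry little weight. In the pathway lists LARP1 sites of at least 1 RPM were on CALR, PDIA3, PDIA4, PDIA6 and PTGES3 after PP242 (5 of 62 list genes of at least 1 RPKM that are no members, 8.06%, against the 3.83% of all genes) and on PDIA6 and SEL1L in growing cells (2 of 62, 3.23%, against 1.75%). The 5 list genes bound after PP242 were all above 100 RPKM, a level at which 33.2% of all genes were bound. The shares of the lists were not matched for mRNA level. For PDIA6 after PP242 the T-to-C value was 0.190% of the multiple described above. All of these genes but PTGES3, a cochaperone of HSP90, belong to ER folding and stress, and CALR (calreticulin), a calcium-binding chaperone of the ER, had the most, with 1629 RPM in its 3'UTR and 1502 RPM in its CDS.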

How the data were processed

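Each of the 115 transcripts was taken from the mRNA-seq table by its gene symbol. The authors mapped reads to the transcriptome of GRCh37 with Bowtie, divided reads that match several places evenly, and deposited RPKM values per transcript and library. The deposited PAR-CLIP lists give, for each site, RPM, its ratio to transcript RPKM, and a column on T-to-C conversion that was handled as a score because the authors do not define it; it is given here as a percentage of its usual multiple of RPM (25.8 in growing cells, 28.3 after PP242).

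Repeated lines were dropped, and sites with the same RPM on several isoforms of a gene were counted once. RPKM values are not counts, so limma 3.58.1 (R 4.3.3; lmFit and trended eBayes) was run on log2(RPKM + 1) of the 21014 transcripts averaging 1 RPKM or more. P-values were Benjamini-Hochberg adjusted over all of them, with a threshold of 0.05. Fold changes on this scale understate those of low transcripts, and percentages are of mean RPKM. With 2 against 2 libraries an exact permutation test cannot go below a two-sided p of 0.333. On simulated data of 21014 transcripts, 200 of 200 changes of 0.5 (log2) and 172 of 200 changes of 0.2 were called. The changes were planted in the more abundant transcripts alone, with normal noise drawn around the fitted spread. Recall was not simulated for changes smaller than 0.2 or for low transcripts, and several genes called here are of these kinds. Python 3.11.15, numpy 2.4.6, pandas 2.3.3 and matplotlib 3.10.9 did the rest.

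Named genes are the members past the threshold, the most abundant member of each name group, the TRiC subunits, members with a LARP1 site of at least 1 RPM, and the 10 largest called changes of the pathway lists; others are said to be chosen later, listed as counted group members, or given for a promoter motif or a site. The members, lists and tests were chosen with earlier results of these data known. The alternatives were other pseudocounts, filters and scaling, a replicate block, a fit without a trend, leaving out each library, 1 transcript per gene, added names, and other ways to count sites. Sequences of LARP1 sites were not analysed here.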

Additional observations from a re-analysis of the deposited data

How the results depend on the processing

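No named change that passed the test turned its direction under any alternative in which it was tested. Named genes that did not pass were not checked for this. The number of chaperone transcripts called after PP242 (10, 3 higher and 7 lower) was 9 to 11 with a pseudocount of 0.1, a mean of at least 10 RPKM, libraries scaled to the same median, 1 transcript per gene, or added RefSeq names. It was 5 (1 higher, 4 lower) without a trend in eBayes, and 0 (0 higher, 0 lower, with 25 at an unadjusted p under 0.05 in limma) without a filter on low values, where 120 of all 38438 transcripts were called against 2087 of 21014. Without 1 library it ranged from 1 to 5 (0 to 2 higher, 1 to 4 lower), and the count over all transcripts from 863 to 1060; it was 975 of those with at least 10 RPKM. The 1 left without the first growing library was the second HSPA8 transcript. Replicate numbers were not shown to pair the libraries, since the differences between replicates 1 and 2 correlated at 0.040 between conditions over all tested transcripts and at 0.162 over those above 10 RPKM, with 2 pairs and no shared batch named in the labels, and with the replicate block 11 members (4 higher, 7 lower) and 2135 transcripts were called, with DNAJA2 lost. The summed RPM of LARP1 sites (6195 in growing cells, 8203 after PP242) was 6195.1 and 9782 with every listed line, 6195.0 and 7851 without sites of equal RPM outside the members, and 6099 and 8068 with the T-to-C column at 50% or more of its multiple, which left 1 site in growing cells. Summed as the deposited ratio to RPKM it was 50080 and 39437, so that the order of the conditions turned; the growing sum then rests largely on DNAJC5B, at 39290 from 0.43 RPM on a transcript at 0.011 RPKM. Depth per PAR-CLIP library was not used, which leaves the error of single sites unknown.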
